A study of Homo sapiens with 9 samples.

Results

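NNMT and 7 enzymes that make, recycle or use nicotinamide adenine dinucleotide (NAD) were followed across 9 PrimeView arrays. The cells were MDA-MB231, an established line from a human breast carcinoma. The other genes were NAMPT, NMNAT1, NMNAT2, NMNAT3, NADSYN1, QPRT and SIRT1. These 8 of 18132 measured genes were chosen from a list of pathway symbols, with 16 probe sets annotated to them, and each gene was read at the probe set that was brightest on average. The list was drawn up with the rise of NNMT under BB94 already known, so that difference is given here as a description with no test. The members, lists and tests were all chosen with earlier results of these data known. The groups were 3 cultures given 3 µM PD325901, an inhibitor of the kinase MEK, 2 given 10 µM BB94 (batimastat, an inhibitor of metalloproteinases) and 4 given 0.1% DMSO as control. All were plated at 70% confluency in serum-containing medium, treated on the following day and lysed after 24 h, at 90% confluency. Each inhibitor was tested in 1 cell line, at 1 dose and at 1 time. It is not stated whether DMSO was levelled between the PD325901, BB94 and control cultures. Arrays called biological replicates were counted as separate cultures, as the labels name them.

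NAD is made in human cells by 3 routes. In the salvage route, NAMPT joins nicotinamide to a ribose phosphate and sets the pace, and the NMNAT enzymes then add the adenylyl group, NMNAT1 in the nucleus, NMNAT2 on Golgi and vesicle membranes and NMNAT3 in mitochondria. QPRT closes the route from tryptophan, and NADSYN1 is the amidating step shared by that route and the one from nicotinic acid. SIRT1, a nuclear deacetylase, splits NAD and releases nicotinamide. NNMT methylates nicotinamide with S-adenosylmethionine as donor, which takes it out of salvage and spends a methyl group, and it is known from several carcinomas and from tumour fibroblasts.

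Bases upstream of the annotated start are shown for NADSYN1, whose change under PD325901 was the largest among the members other than NNMT, and for SIRT1, which was not called in either comparison. The 250 bases before the start come from RefSeq, build GRCh38.p14, on the coding strand from 5′ to 3′. Capitals mark an E-box, CACGTG, the site read by MYC and clock factors. NADSYN1 is at chr11:71452953-71453202 on the plus strand and SIRT1 at chr10:67884406-67884655 on the plus strand.
NADSYN1: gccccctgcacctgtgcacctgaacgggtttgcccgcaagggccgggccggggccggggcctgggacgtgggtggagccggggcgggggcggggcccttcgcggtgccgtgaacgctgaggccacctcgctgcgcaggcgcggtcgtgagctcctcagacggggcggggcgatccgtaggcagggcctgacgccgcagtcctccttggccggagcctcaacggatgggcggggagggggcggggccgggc
SIRT1: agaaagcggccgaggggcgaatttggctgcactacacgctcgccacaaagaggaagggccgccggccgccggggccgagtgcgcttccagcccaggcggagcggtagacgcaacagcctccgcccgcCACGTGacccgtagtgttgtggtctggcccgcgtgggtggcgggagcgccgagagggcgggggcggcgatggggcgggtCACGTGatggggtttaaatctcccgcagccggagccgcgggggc
Across 10 such windows of 7 members, an E-box was found in 1, that of SIRT1, with 2 copies beginning 123 and 44 bases before the start. The letters TTCNNNGAA, a STAT motif, were found in 1 of the 10 windows, at a second start of NMNAT2, and TGACTCA, the AP-1 motif, in 0. Both strands were searched, and the motifs overlapped nowhere in these windows. Among 34943 windows of the same length in the table, 6.32% held CACGTG, 6.56% TTCNNNGAA and 4.22% TGACTCA. G and C made up 77.6% of the NADSYN1 window and 72.0% of the SIRT1 window, against a median of 58.0% over all windows.

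NNMT transcript was far higher under both inhibitors than in control. It stood at 11.34, 11.36 and 11.17 in the PD325901 arrays, at 11.07 and 11.06 in the BB94 arrays and at 7.75, 7.87, 7.90 and 7.87 in the control arrays, all as log2 RMA values of probe set 11744776_a_at. Treated and control arrays did not overlap, and the 5 treated arrays lay within a narrow range. Against control, PD325901 raised NNMT 10.9-fold (log2 3.44, SE 0.08, 95% interval 3.26 to 3.62, adjusted p = 1.9e-09). That test shares its control arrays with the BB94 comparison through which the gene was chosen. Under BB94 the mean was 11.06 ± 0.01 (SD, n = 2), against 7.85 ± 0.07 (SD, n = 4) in control, a log2 difference of 3.22 or 9.29-fold. The PD325901 mean, 11.29 ± 0.10 (SD, n = 3), lay 0.23 above the BB94 mean on the log2 scale, and every PD325901 array lay above both BB94 arrays. With each array centred on its median over genes this difference became -0.10, so its direction depends on the scaling. More transcript per cell and a larger share of NNMT-expressing cells cannot be told apart in RNA from whole cultures.

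**Figure D1:**
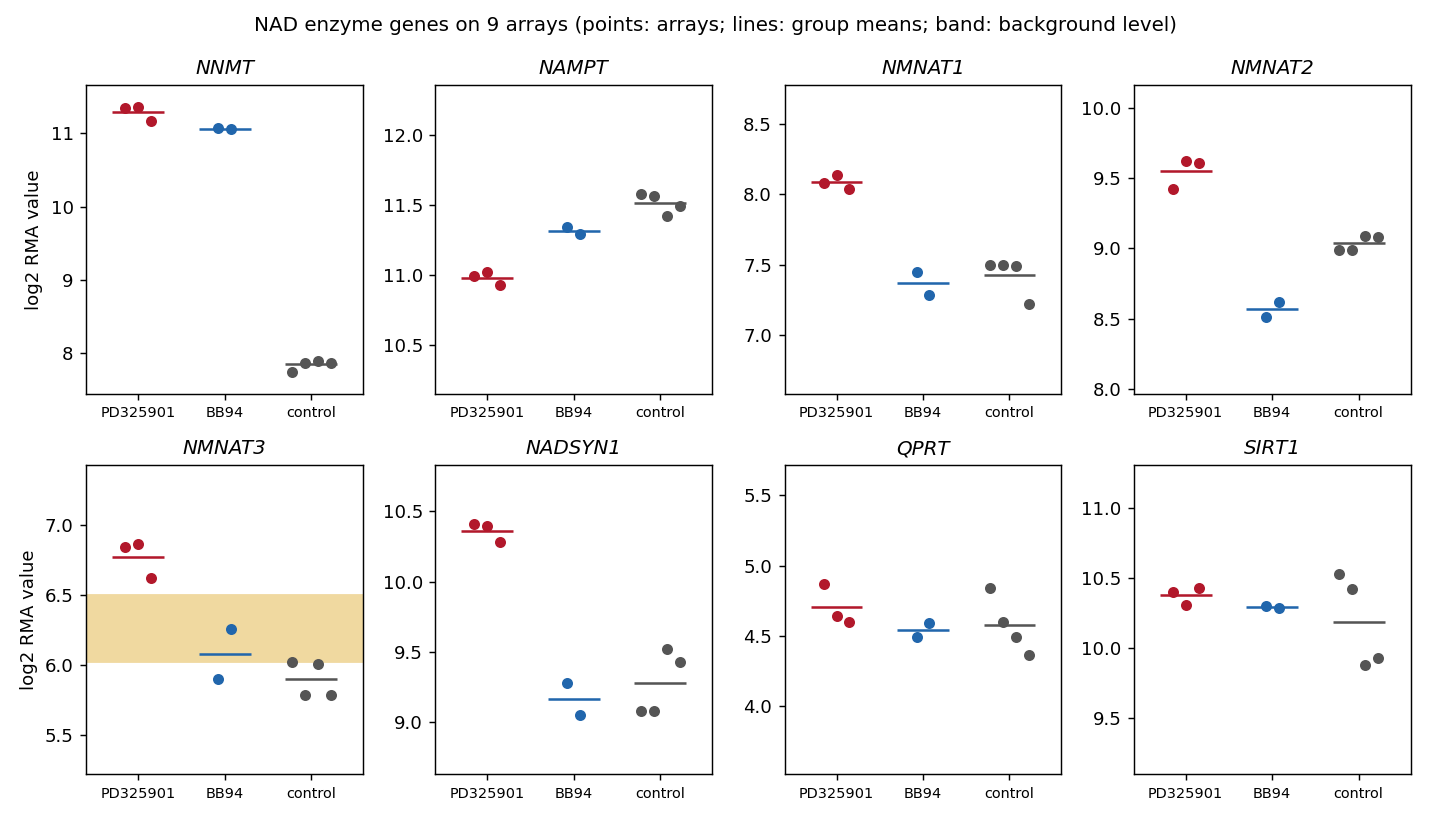
Log2 RMA value (y axis, its own scale in each panel) of the 8 genes in the 3 PD325901, 2 BB94 and 4 control arrays (x axis); points are arrays, lines are group means and the tan band is the span of the background level, 6.02 to 6.50. NNMT lay above 11 in every treated array and below 8 in every control array, NMNAT3 crossed the band under PD325901, and QPRT lay wholly below the band, which is off its panel.

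Under PD325901, 5 of the 8 genes rose and 1 fell, with 2 not called. Of all genes, 35.1% were called in that comparison, 22.8% higher and 12.3% lower. The 8 genes include NNMT and were chosen with earlier results of these data known. Their count and median are therefore descriptions, not a test against all genes. The median log2 change was 0.58 over the 8 genes and 0.08 over all genes. Centring arrays on their medians over genes moved the median of all genes to -0.17, so small changes are to be read against that shift. Under BB94, 1 of the 7 genes other than NNMT was called, lower, and 2 had an unadjusted p under 0.05. There limma called 1.58% of all genes, 0.491% higher and 1.09% lower, and 1.50% of all probe sets. Between the inhibitors, 4 of these 7 genes were higher and 1 was lower under PD325901 than under BB94, where 31.2% of all genes were called, 21.0% higher and 10.2% lower, and 25.8% of all probe sets. The comparisons share arrays and are given side by side for that reason.

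NAMPT, the enzyme of the pacing step of salvage, fell under PD325901. Its values were 10.99, 11.02 and 10.93 in the PD325901 arrays, 11.34 and 11.29 in the BB94 arrays and 11.58, 11.56, 11.42 and 11.49 in the control arrays. The 3 groups did not overlap, with BB94 between the other groups. The PD325901 change was 1.45-fold lower (log2 -0.54, SE 0.08, adjusted p = 2.4e-04). For BB94 the log2 change was -0.20 (95% interval -0.39 to -0.01, adjusted p = 0.425), not a call. PD325901 lay below BB94 by a log2 difference of -0.33 (adjusted p = 0.0160), a call that ended without BB94 replicate 1 (adjusted p = 0.0991), BB94 replicate 2 (0.0654) or PD325901 replicate 3 (0.0553). A second probe set of NAMPT, 11743111_s_at, read 9.72, 9.70 and 9.55 under PD325901, 10.62 and 10.58 under BB94 and 10.86, 10.92, 10.86 and 10.99 in control. Its PD325901 fall was larger, 2.38-fold (log2 -1.25, adjusted p = 1.2e-06 over all probe sets), in a fit that called 29.4% of probe sets. At this probe set PD325901 lay below BB94 by -0.94 (log2, adjusted p = 5.0e-05), where 25.8% of probe sets were called. Probe sets with the suffix _s_at can match transcripts of more than 1 gene, and the size of the NAMPT fall differed between the probe sets. The probe sets used for NMNAT1 (11758501_s_at), NADSYN1 (11755075_s_at) and SIRT1 (11726140_s_at) carry the same suffix and share that limit. The other NAMPT probe set, 11760312_at, lay below background on all arrays.

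The 3 adenylyltransferase genes, NMNAT1, NMNAT2 and NMNAT3, all rose under PD325901. NMNAT1 stood at 8.08, 8.14 and 8.04 in the PD325901 arrays, 7.45 and 7.28 in the BB94 arrays and 7.50, 7.50, 7.49 and 7.22 in the control arrays. The PD325901 arrays lay above all others, while BB94 and control overlapped. The rise was 1.58-fold (log2 0.66, SE 0.09, adjusted p = 2.8e-04), and the BB94 change was -0.06 (95% interval -0.30 to 0.18, adjusted p = 0.934). Its second probe set was below background throughout.

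NMNAT3, the mitochondrial form, was measured above background under PD325901 alone in every array of a group. Its values were 6.84, 6.86 and 6.62 with PD325901, 5.90 and 6.26 with BB94 and 6.02, 5.79, 6.01 and 5.79 in control. Background was taken per array as the highest of the 23 background probe sets, 6.02 to 6.50, and 1 of 2 BB94 arrays and 0 of 4 control arrays exceeded it. The PD325901 rise was therefore at least 1.48-fold (log2 0.87 in the fit, adjusted p = 1.5e-04). For BB94 no fold is given (log2 0.18, 95% interval -0.11 to 0.47, adjusted p = 0.743).

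NMNAT2, the Golgi-associated form, was the member called in opposite directions under the inhibitors. It stood at 9.42, 9.62 and 9.61 with PD325901, at 8.51 and 8.62 with BB94 and at 8.99, 8.99, 9.09 and 9.08 in control. No 2 groups overlapped. PD325901 raised it 1.43-fold (log2 0.51, SE 0.08, adjusted p = 6.1e-04), although centring on array medians over genes brought this to 0.26 and ended the call (adjusted p = 0.0709, range 5.1e-05 to 0.0709). Under BB94 it was 1.39-fold lower (log2 -0.47, SE 0.09, adjusted p = 0.0354). That BB94 call was lost in 14 of 21 alternatives, with adjusted p from 0.0185 to 0.262 and log2 changes from -0.52 to -0.31. Directly between the inhibitors, PD325901 was 1.98-fold above BB94 (log2 0.98, SE 0.10, adjusted p = 3.0e-05), a call that held in all 21 alternatives.

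The probe sets of NMNAT2 did not move alike. Of its 4, 11742025_a_at also rose under PD325901 (log2 0.77, adjusted p = 0.00664 over all probe sets). Probe set 11728254_a_at, above background on every array, read 8.04, 8.14 and 8.05 under PD325901, 8.02 and 7.75 under BB94 and 8.12, 8.25, 8.24 and 8.24 in control, with a PD325901 change of -0.14 (95% interval -0.34 to 0.06, adjusted p = 0.318). The remaining probe set lay below background. For BB94 the log2 changes of these probe sets were -0.20 and -0.33 (adjusted p = 0.834 and 0.211), below 0 like that of the probe set used.

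**Figure D2:**
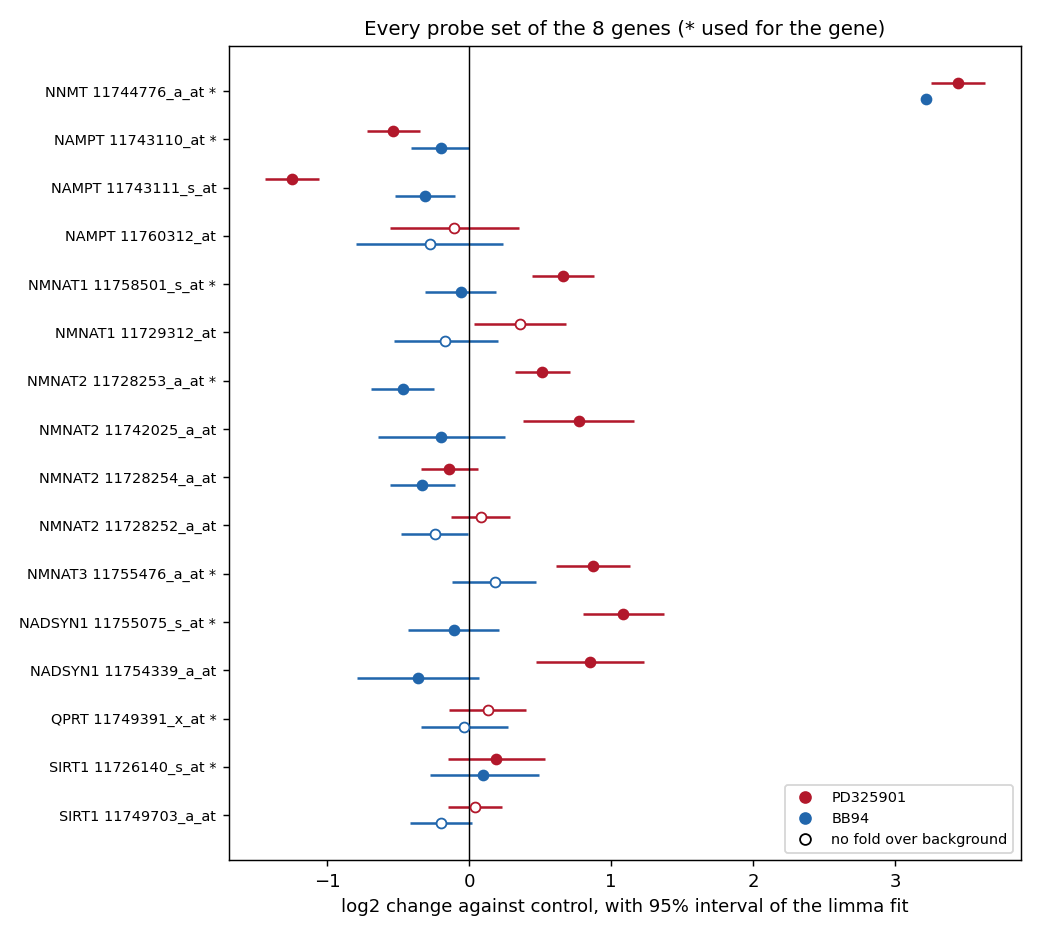
Log2 change against control (x axis) of each of the 16 probe sets of the 8 genes (y axis) under PD325901 (red) and BB94 (blue), with 95% intervals of the limma fit over all probe sets; open points have no fold over background, and the BB94 point of NNMT has no interval because it was not tested. The NNMT points lie above 3, the NAMPT probe sets differ in the size of the PD325901 fall (-0.54 and -1.25), and 1 NMNAT2 probe set lies near 0 under PD325901 where others lie above it.

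NADSYN1, the amidating enzyme, had the largest PD325901 rise after NNMT among the members. Its values were 10.41, 10.40 and 10.28 with PD325901, 9.28 and 9.05 with BB94 and 9.08, 9.08, 9.52 and 9.43 in control. The PD325901 arrays stood apart, while BB94 lay within or just below the span of control. The rise was 2.12-fold (log2 1.08, SE 0.13, adjusted p = 6.3e-05), and its second probe set rose 1.80-fold (log2 0.85, adjusted p = 0.00303 over all probe sets). The BB94 change was -0.11 (95% interval -0.43 to 0.20, adjusted p = 0.894). Control replicates 1 and 2 lay below replicates 3 and 4, and against replicates 1 and 2 alone the BB94 change turned to 0.09 (adjusted p = 0.679).

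QPRT, at the end of the tryptophan route, was below background on all 9 arrays. Its values ran from 4.60 to 4.87 under PD325901, were 4.49 and 4.59 under BB94, and ran from 4.36 to 4.84 in control, so no fold is given. A further probe set, annotated to QPRT under a pair of gene identifiers and left out of the gene's value, also lay below background throughout, at 5.61 to 6.09.

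SIRT1 was not called under either inhibitor, and its control arrays disagreed. It stood at 10.40, 10.31 and 10.43 with PD325901, at 10.30 and 10.29 with BB94 and at 10.53, 10.42, 9.88 and 9.93 in control replicates 1 to 4. The BB94 arrays lay between the pairs of control arrays, and the PD325901 arrays lay above control replicates 3 and 4 and near replicates 1 and 2. The log2 change was 0.19 for PD325901 (95% interval -0.15 to 0.53, adjusted p = 0.408) and 0.10 for BB94 (95% interval -0.29 to 0.49, adjusted p = 0.934). Against control replicates 3 and 4 alone both were called, at 0.47 (adjusted p = 0.00118) and 0.39 (adjusted p = 0.0281), and against replicates 1 and 2 alone they were -0.10 and -0.18 (adjusted p = 0.404 and 0.325). Of all 18132 genes, replicates 3 and 4 alone gave 8338 calls for PD325901 and 1633 for BB94, against 6365 and 286 in the main fit. Replicates 1 and 2 alone gave 6696 and 312. The dependence on the control replicates was therefore not particular to SIRT1. ACTB, read at its 3′ minus its 5′ end as a measure of RNA integrity, was 3.89, 3.75, 3.46 and 2.96 in control replicates 1 to 4, and its part in the SIRT1 values was not tested. It was 4.15, 3.61 and 3.50 in the PD325901 arrays and 3.91 and 4.22 in the BB94 arrays.

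Other genes of NAD and methyl donor metabolism were read from 7 lists with 54 genes, of which 53 were measured. Under PD325901, 17 rose and 5 fell, or 41.5% called, beside 35.1% of all genes. The median change was 0.15, against 0.08 over all genes, and 4 of the called genes lay below background in both groups. With arrays centred on their medians over genes the counts were 12 higher and 13 lower, so the balance of directions depends on the scaling. Under BB94, 1 rose and 1 fell, or 3.77%, beside 1.58% of all genes. No called gene of these lists had a probe set called in the opposite direction. The shares of all genes count dim genes too. With genes of mean log2 under 5 left out, limma called 6226 of 12397 genes for PD325901 and 360 for BB94. Of the listed genes it then called 19 and 3. Each list share set beside that of all genes has this limit, so a higher list share is not read as a result.

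Among genes of the nicotinic acid and riboside routes, 3 of 5 rose and 2 fell under PD325901, with 1 of the 3, NMRK2, below background in both groups. That is 100% called, beside 35.1% of all genes, 22.8% higher and 12.3% lower. NT5E, the surface nucleotidase CD73 that can strip the phosphate from nicotinamide mononucleotide, stood at 11.66, 11.61 and 11.29 with PD325901, 12.79 and 12.83 with BB94 and 12.93, 12.98, 12.86 and 12.79 in control. It fell 2.59-fold under PD325901 (log2 -1.37, SE 0.10, adjusted p = 2.5e-06). PNP, a nucleoside phosphorylase that also cleaves nicotinamide riboside, fell 1.91-fold (log2 -0.93, SE 0.07, adjusted p = 3.3e-06). NMRK1, a kinase of nicotinamide riboside, rose 2.10-fold (log2 1.07, SE 0.10, adjusted p = 1.1e-05). In BB94 the same genes had log2 changes of -0.08, -0.02 and 0.07, none of them called.

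SLC12A8, described as a transporter of nicotinamide mononucleotide, a role that is debated, had the largest change of these lists. It stood at 11.11, 11.31 and 10.99 with PD325901, at 7.82 and 7.90 with BB94 and at 7.99, 7.82, 7.98 and 7.57 in control. The PD325901 arrays lay far above the rest, and BB94 lay within the span of control. The rise was 9.82-fold (log2 3.30, SE 0.12, adjusted p = 2.3e-08), and both of its probe sets were called higher, although their mean gave a smaller log2 change of 2.11. The BB94 change was 0.02 (95% interval -0.28 to 0.32, adjusted p = 0.989). The transhydrogenase gene NNT rose 1.37-fold under PD325901, a call that ended with arrays centred over genes (log2 0.20 against 0.46, adjusted p = 0.169, range 2.4e-04 to 0.169). The other 4 of the 6 genes of NAD phosphorylation and transport were not called at the probe set used, or 33.3% called, beside 35.1% of all genes. Of the 4 probe sets of NADK, an NAD kinase gene, 1 was called lower in the fit over all probe sets.

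AOX1, the aldehyde oxidase that converts the methylated nicotinamide made by NNMT to pyridones, moved in opposite directions under the inhibitors. It stood at 7.89, 7.71 and 7.72 with PD325901, at 10.20 and 10.21 with BB94 and at 9.37, 9.48, 9.37 and 9.25 in control. The groups were wide apart. It fell 3.02-fold under PD325901 (log2 -1.59, SE 0.08, adjusted p = 2.5e-07) and rose 1.78-fold under BB94 (log2 0.83, SE 0.10, adjusted p = 0.00179), and both calls held in all 21 alternatives. Between the inhibitors the log2 difference was -2.43 (adjusted p = 9.5e-08), 5.39-fold lower under PD325901. None of the other 6 measured genes of its list, small-molecule methyltransferases, was called in either comparison with control at the probe set used. For HNMT, the histamine methyltransferase gene, that probe set had a PD325901 change of 0.33 (adjusted p = 0.0549), and 3 of its 7 probe sets were called higher in the fit over all probe sets.

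KYNU, kynureninase of the tryptophan route, was the other gene called with both inhibitors. It stood at 12.40, 12.49 and 12.40 with PD325901, at 11.38 and 11.32 with BB94 and at 12.05, 12.00, 12.16 and 12.04 in control. The change was 0.37 under PD325901 (adjusted p = 0.00277), which fell to 0.12 with arrays centred over genes (adjusted p = 0.288, range 3.1e-05 to 0.288). Under BB94 it was -0.71 (SE 0.09, adjusted p = 0.00233), with all 3 probe sets called lower, and without BB94 replicate 2 the adjusted p was 0.0544 (range 1.8e-04 to 0.0544). Of the 11 genes of this route, 3 were called under PD325901, all higher, or 27.3%, beside 35.1% of all genes. Besides KYNU these were TDO2 and IDO1, which lay below background in both groups.

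Among consumers of NAD, 4 of the 6 other sirtuin genes rose under PD325901 and 0 fell. That is 66.7% called, beside 35.1% of all genes, 22.8% higher and 12.3% lower. SIRT2 was not called at the probe set used, although 1 of its 3 probe sets was called higher in the fit over all probe sets. SIRT4, a mitochondrial member, stood at 8.01, 8.03 and 8.14 with PD325901, at 5.92 and 5.92 with BB94 and at 6.15, 6.46, 6.46 and 6.46 in control, with 3 of 4 control arrays above background. It rose at least 3.12-fold (log2 1.68 in the fit, adjusted p = 4.3e-07), SIRT5, also mitochondrial, 1.82-fold (adjusted p = 2.2e-05) and SIRT7, a nucleolar member, 1.53-fold (adjusted p = 4.9e-04). Under BB94 SIRT4 had a log2 change of -0.46 in the fit (95% interval -0.71 to -0.22, adjusted p = 0.0754), with its BB94 arrays below background. SIRT5 had -0.30 under BB94 (95% interval -0.52 to -0.08, adjusted p = 0.239), and neither was called. Of 9 PARP and NAD glycohydrolase genes, PARP3 rose 1.93-fold, TNKS rose 1.43-fold and PARP2 fell 1.56-fold under PD325901. That is 33.3% called, near the 35.1% of all genes, and 6 were not called at the probe set used. In the fit over all probe sets, 2 of the 4 SARM1 probe sets were called higher and 1 of the 4 PARP1 probe sets lower. The TNKS call ended with arrays centred over genes (adjusted p = 0.159) and without PD325901 replicate 2 (adjusted p = 0.0526, range 1.8e-04 to 0.159). In the methyl donor cycle, 3 of 9 genes rose and 1, MTRR, fell, or 44.4% called, beside 35.1% of all genes. The MTRR call (log2 -0.35, adjusted p = 0.0466) was lost in 11 of 21 alternatives, with adjusted p from 1.6e-04 to 0.146. AHCYL2, a relative of the hydrolase AHCY, rose 1.54-fold and the methionine synthase gene MTR 1.30-fold, while MAT1A was called below background. For MTR the mean of its probe sets gave a log2 change of 0.09 (adjusted p = 0.509), against 0.38 at the probe set used. The same mean gave 0.28 for AHCYL2, against 0.62, and 0.35 for SIRT7, against 0.62, with 1 of the 2 probe sets of each called. Neither MAT2A, which makes the methyl donor in non-liver cells, nor AHCY was called at the probe set used, although 4 of the 6 MAT2A probe sets were called lower in the fit over all probe sets. Under BB94, 0 genes of the sirtuin, PARP and methyl donor lists were called by limma at the probe set used, with 2, 2 and 0 at an unadjusted p under 0.05. In the fit over all probe sets, 2 of the 4 probe sets of TNKS2, a second tankyrase gene, were called lower under BB94 and 1 lower under PD325901.

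**Figure D3:**
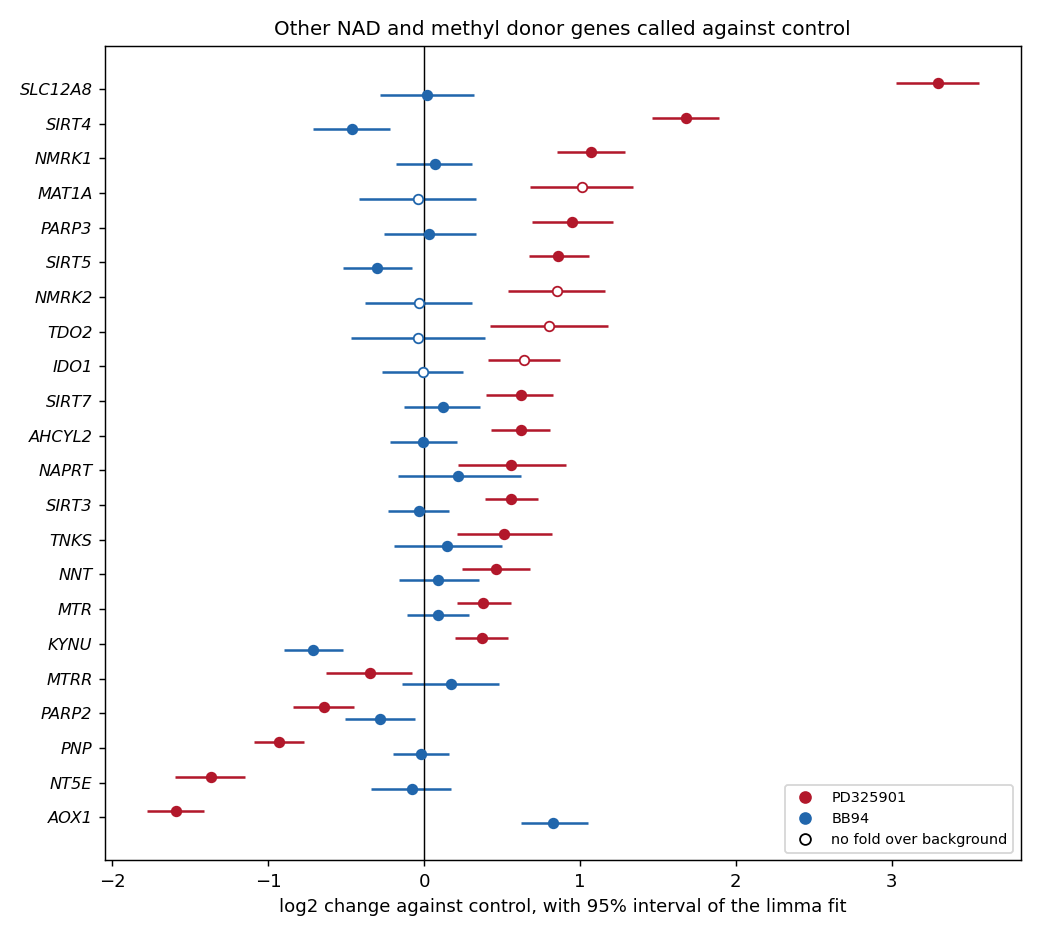
Log2 change against control (x axis) of the 22 other NAD and methyl donor genes called for PD325901 or BB94 against control (y axis, ordered by the PD325901 change), under PD325901 (red) and BB94 (blue), with 95% intervals of the limma fit; open points have no fold over background. SLC12A8 and AOX1 hold the ends of the PD325901 order at 3.30 and -1.59. AOX1, KYNU, SIRT4 and SIRT5 have BB94 intervals and PD325901 intervals on opposite sides of 0, and of these AOX1 and KYNU were called under BB94.

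Genes whose values over the 9 arrays were most like those of NNMT were ranked by Pearson correlation, among 3479 genes with a range of at least 1 log2 unit. The 5 highest were SAA2 (r = 0.994), HPGD (0.986), KLF7 (0.977), VSTM2L (0.972) and S100P (0.971). The points share 3 groups of arrays, so r mostly reads that treated arrays lay apart from control, and it is given as a description with no test. SAA2, an acute-phase protein gene close in sequence to SAA1, averaged 7.14 ± 0.17 (SD, n = 3) under PD325901, 6.68 ± 0.01 (SD, n = 2) under BB94 and 3.96 ± 0.14 (SD, n = 4), below background, in control. HPGD, an enzyme that degrades prostaglandins with NAD as cofactor, averaged 8.34 ± 0.07 (SD, n = 3) under PD325901, 8.15 ± 0.03 (SD, n = 2) under BB94 and 6.78 ± 0.19 (SD, n = 4) in control. KLF7, a transcription factor gene, differed from control by 1.08 under PD325901 and 0.90 under BB94 on the log2 scale, VSTM2L by 1.28 and 1.58, and S100P, a calcium-binding protein gene, by 1.11 and 1.23.

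**Figure D4:**
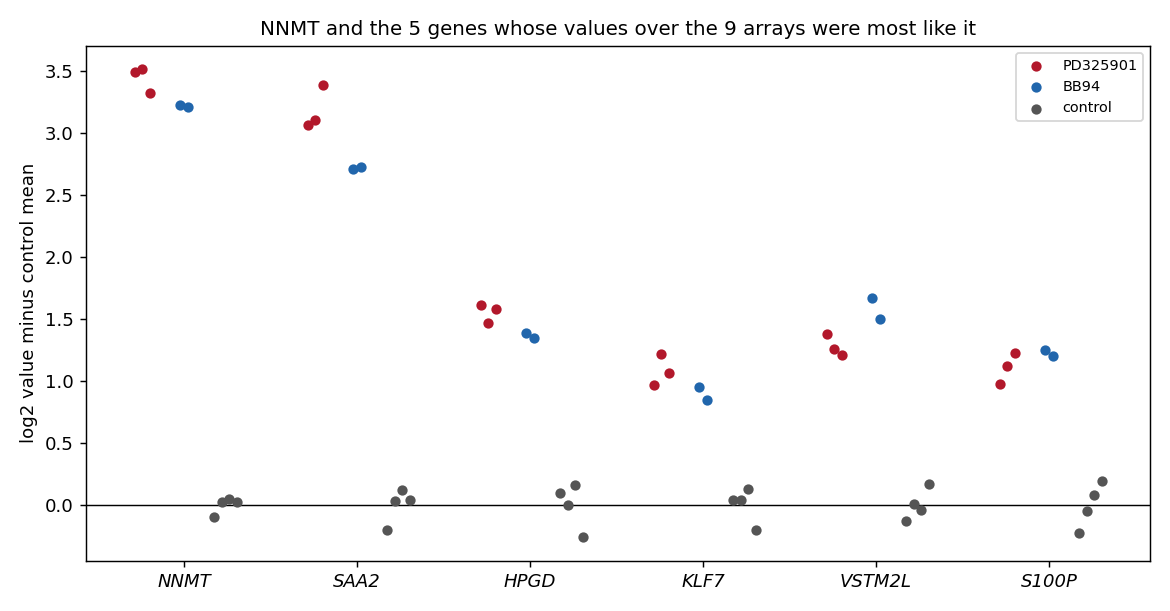
Log2 value minus the control mean (y axis) of NNMT and the 5 genes with the highest correlation to it over the 9 arrays (genes along the x axis), with 1 point for each PD325901 (red), BB94 (blue) and control (grey) array. Treated arrays lie above control arrays for all 6 genes, and both BB94 points of VSTM2L lie above its 3 PD325901 points.

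The labelled cell line was checked on marker genes. All 5 genes listed for the mesenchymal character of this line, VIM, CD44, CAV1, AXL and FN1, were above background on every array, and ESR1, PGR and CDH1 were below it on every array, while EPCAM and GATA3 were above it throughout. The mean level of these 5 luminal and epithelial genes was 6.46 to 6.60 in PD325901 arrays and 5.95 to 6.22 in control arrays. GATA3 averaged 8.70 ± 0.10 (SD, n = 3) under PD325901, 7.99 ± 0.24 (SD, n = 2) under BB94 and 7.80 ± 0.10 (SD, n = 4) in control, and the part of this shift in the results was not tested. Since NNMT is also a fibroblast gene, 6 fibroblast genes were read: COL1A2, COL3A1, DCN and LUM lay below background on all 9 arrays, PDGFRB above it on 1 control array and COL1A1 above it on every array. Their mean level was 4.83 to 4.85 in PD325901, 4.42 to 4.53 in BB94 and 4.50 to 4.78 in control arrays. The 3 leukocyte and 3 endothelial genes measured were below background throughout, as were ALB and TTR of the hepatocyte list, whose APOA1 was above it. The mean of 4 ERK output genes, which MEK inhibition is known to lower, was 7.39 to 9.21 in the PD325901 arrays, 12.41 to 12.45 in the BB94 arrays and 12.42 to 12.54 in the control arrays.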

How the data were processed

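RNA from 9 cultures was hybridised to PrimeView arrays, and the deposited log2 values came from the authors' use of RMA (package affy), per the labels and the series design text. That routine subtracts background, gives all arrays the same distribution and combines the probes of a set, which compresses low values. Array medians of 49395 probe sets ran from 6.05 to 6.34, and no further scaling was applied. Control probe sets (102) were left out. The platform annotation gave 44988 probe sets 1 gene symbol, 1832 several and 2473 none, and names were checked against RefSeq GRCh38.p14 with 0 updates. The tests used limma 3.58.1 under R 4.3.3 (lmFit, eBayes, two-sided) over 18132 genes, 1 coefficient per group, with 6 residual degrees of freedom shared by the 9 arrays and Benjamini-Hochberg adjustment over all genes. A call is an adjusted p under 0.05. A group with an array below background (the highest of 23 background probe sets on that array) has only a bound, computed from the mean of the higher of background and the gene's own value. Arrays carry no read depth, and their number limits precision. The fit was tested on simulated data. The members, lists, tests and motifs were chosen with earlier results of these data known. All 8 members are named with every probe set, then up to 3 called genes of each list with the largest changes, and the 5 genes most like NNMT. NMRK2, NAPRT, MTRR, MAT2A, AHCY, HNMT, TNKS2, NADK, SIRT2, SARM1, PARP1 and marker genes were named outside this rule, after their values were seen. Alternatives changed the probe set rule, filter, moderation, weights, scaling, block, arrays in the fit and replicates, and the values of pathway genes under them were added after seeing the data.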

Additional observations from a re-analysis of the deposited data

Results flagged for a closer look

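The 43 probe sets examined were the 16 of the members and those used for called pathway genes and the 5 genes most like NNMT. In each, the 4 control arrays were examined for 1 array far from the rest. The measure was its gap to the nearest array over the whole range, against Dixon's 95% critical value. Chance gives this in about 1 in 20 groups, and 5 probe sets passed. For the NMNAT1 probe set used, control replicate 4 read 7.22 and the others 7.49 to 7.50 (gap over range 0.960). Without it the PD325901 change was 0.59 and remained a call. For SIRT4, control replicate 1 read 6.15 and the other 3 read 6.46 (gap over range 1.00). NMNAT2 probe set 11728254_a_at had control replicate 1 at 8.12 and the others at 8.24 to 8.25 (0.903). NMNAT2 probe set 11728252_a_at, with replicate 4 at 3.75 and the others at 3.90 (0.955), and SIRT1 probe set 11749703_a_at, with replicate 2 at 4.04 and the others at 3.86 to 3.89 (0.849), lay below background. Groups of 2 and 3 arrays were not examined.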

How the results depend on the processing

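The counts of members called were 6 for PD325901 against control and 5 for PD325901 against BB94, and over 21 alternatives they ran from 5 to 7 and from 4 to 5. NNMT, NAMPT, NMNAT1, NMNAT3 and NADSYN1 kept their PD325901 calls in all 21. The BB94 count of 1, NMNAT2, became 0 with the mean of probe sets (NMNAT2 at -0.31), centring over genes (-0.40) or probe sets (-0.36), cyclic loess (-0.43), the replicate block (-0.42), the 2 groups alone (-0.47) and control replicates 1 and 2 alone (-0.42), and 2 with control replicates 3 and 4 alone. It ran from 0 to 1 when single arrays were left out, and was 0 without control replicate 2, 3 or 4, BB94 replicate 1 or 2 or PD325901 replicate 2 or 3. The NNMT difference for BB94 moved to 3.29 and 3.33 with the centrings over genes and probe sets and ran from 3.18 to 3.23 without single arrays. The pathway count for BB94, 2, was 4 with array weights, 8 with control replicates 3 and 4 alone and 1 to 3 without single arrays, 1 without BB94 replicate 2. Over all 18132 genes, BB94 calls also rose, from 286 to 469 with array weights and to 1633 with control replicates 3 and 4 alone. The larger BB94 counts of members and pathway genes are therefore not particular to them. For PD325901 the pathway count ran from 19 to 28. MTRR lost its PD325901 call in 11 of 21 alternatives and NAPRT in 6. Whether the replicate numbers pair the samples was not settled. Over 7 same-numbered pairs, deviations from group means correlated from -0.186 to 0.122, 1 of them over 0.1. Not every array correlated best with its own number. Deviations of the 2 BB94 arrays from their own mean mirror each other, so this check cannot exclude pairing. With the replicate block, limma called 5950 genes for PD325901 and 161 for BB94, against 6365 and 286 without it. Changes that turned sign were those of genes not called or not tested. Centring over genes gave PD325901 changes of -0.13 for QPRT and -0.06 for SIRT1, BB94 changes of 0.01 for NMNAT1 and 0.03 for QPRT, and PD325901 minus BB94 of -0.10 for NNMT, -0.16 for QPRT and -0.24 for SIRT1. It also ended the calls of NMNAT3 between the inhibitors (0.37, adjusted p = 0.0743) and of KYNU, NNT, TNKS, MTR and NAPRT for PD325901. Centring over probe sets gave 0.05 for NMNAT1 and 0.07 for QPRT (BB94), and -0.05 for QPRT and -0.13 for SIRT1 (PD325901 minus BB94). Cyclic loess gave QPRT -0.01 for PD325901, 0.00 for BB94 and -0.01 between them, and SIRT1 -0.02 between them. For SIRT1 under BB94 the mean of probe sets gave -0.05, array weights -0.03, the replicate block -0.07 and control replicates 1 and 2 alone -0.18, and NADSYN1 became 0.00 with weights and 0.09 with those controls. Those controls gave -0.02 for QPRT and -0.10 for SIRT1 under PD325901. Control replicates 3 and 4 alone gave BB94 changes of 0.01 for NMNAT1 and 0.11 for QPRT. Without single arrays, BB94 changes turned for QPRT (-0.11 to 0.05), NMNAT1 (-0.15 to 0.03), NADSYN1 (-0.23 to 0.00), SIRT1 (0.00 to 0.22) and NMNAT3 (0.00 to 0.36). The causes were not tested. The filter at a mean of 5 left out QPRT, NMRK2, TDO2, IDO1 and MAT1A. With the median of the background probe sets as the level, 8 members were above it on every array, against 6 with the highest.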
